A study of Zeugodacus cucurbitae with 52 samples.

Results

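Lysozyme genes of the melon fly, Zeugodacus cucurbitae, were taken as all genes whose product description begins with the word lysozyme, which gave 15 of the 18241 genes in the expression table. They comprised 5 genes named lysozyme B-like, 1 named lysozyme E-like, 2 named lysozyme 1-like, 1 named lysozyme D-like, 3 named lysozyme P-like and 1 each named lysozyme, lysozyme c-1 and lysozyme-like. Whole bodies were sequenced at 13 stages, with 4 biological replicates each and 52 libraries in all. The stages were the egg (E), 1-, 3- and 7-d-old larvae (L1, L3, L7), 1-, 5- and 9-d-old pupae (P1, P5, P9), and virgin females (F1, F5, F9) and males (M1, M5, M9) of the same 3 ages. A library came from a pool of 100 eggs, 100, 20 or 10 larvae of rising age, 3 pupae or 3 adults, of animals reared in the laboratory with larvae on a bitter gourd diet and adults on sucrose, yeast powder and honey. A library is therefore a pool of individuals, and differences between animals of one stage were not measured.

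Lysozymes are secreted enzymes that cut the sugar backbone of peptidoglycan, the cell wall polymer of bacteria. In Drosophila melanogaster the chicken-type lysozyme genes form a cluster, and most members are made in the larval midgut, where they act on the bacteria taken in with rotting food. Others of that cluster are used in other places, LysP in the adult salivary gland and LysX around pupation. The names of the melon fly genes come from sequence likeness to such genes, and no role has been measured for them here.

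Levels are TPM (transcripts scaled to one total per library), a share of each library's transcripts after division by gene length, so that levels of different genes can be set side by side. Values in parentheses or lists run from replicate 1 to replicate 4. Log2 fold changes are differences of mean log2(TPM + 1), which understate the change of genes at low TPM, and are given with their standard error (SE) and the adjusted p of limma. Rises and falls, and the counts of differentially expressed genes, refer to an adjusted p under 0.05 over the 17097 genes tested and an absolute log2 fold change above 2. All 15 lysozyme genes passed the filter on low values (TPM above 0.1 in at least 4 libraries). TPM keep no read depth, so no counting interval can be given for a single value. In whole bodies, fewer cells of a type and less RNA per cell cannot be told apart. The labels fitted their stages by simple markers. All 5 larval serum protein genes had their highest mean in the 7-d-old larva, and 3 protamine-like genes lay at 0.22 TPM or less in females of every age against 71.3 to 1126 TPM in males. Replicate 3 of the 3-d-old larva stood apart in gene1941, gene5007 and gene5009, which is given with each of them, and under 70% of reads mapped in it and in 5 other libraries.

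**Figure D1:**
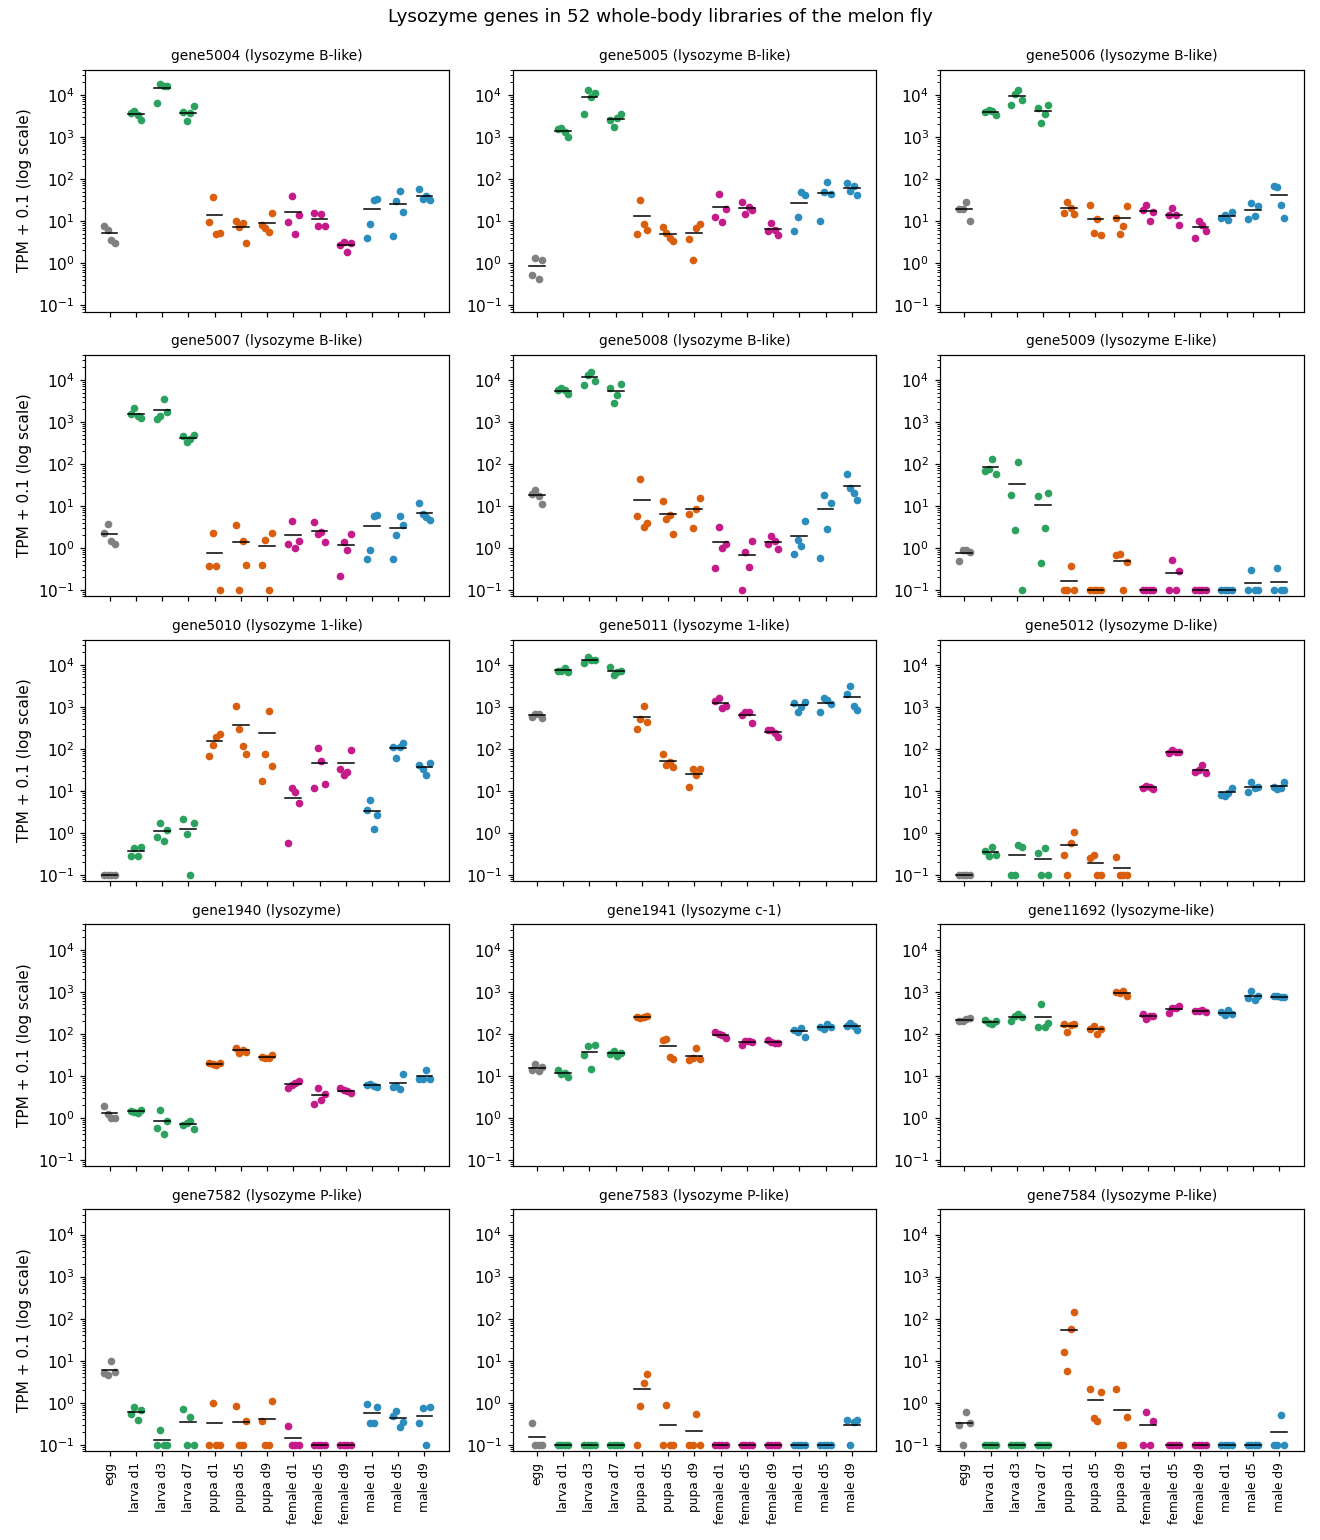
TPM + 0.1 on a log axis of the 15 lysozyme genes in each of 52 libraries (points, coloured by egg, larva, pupa, female and male) with the stage mean as a line. The 6 genes gene5004 to gene5008 and gene5011 lay between 333 and 17869 TPM in every larval library, gene5010 and gene1940 were highest in pupae, and gene5012 reached 7.64 TPM or more in every adult library and 0.97 TPM at most elsewhere.

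Lysozyme transcripts were a larval product above all. The 15 genes together took 2.36% ± 0.28 (SD, n = 4) of all TPM in the 1-d-old larva, 5.96% ± 1.67 in the 3-d-old larva and 2.37% ± 0.65 in the 7-d-old larva. In the egg they took 0.0907% ± 0.0068. In the 3 pupal stages the sum was 0.126% ± 0.037, 0.0679% ± 0.0510 and 0.130% ± 0.047. In adults it lay between 0.0762% ± 0.0023 (9-d-old female) and 0.291% ± 0.112 (9-d-old male). Every larval library (1.56% to 7.16%) stood above every library of the egg, pupa and adult (0.0317% to 0.430%). In the 3-d-old larva gene5004 (14322 TPM) and gene5011 (13199.8 TPM) ranked 3 and 4 among all genes, gene5008 ranked 7 and gene5006 ranked 10.

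**Figure D2:**
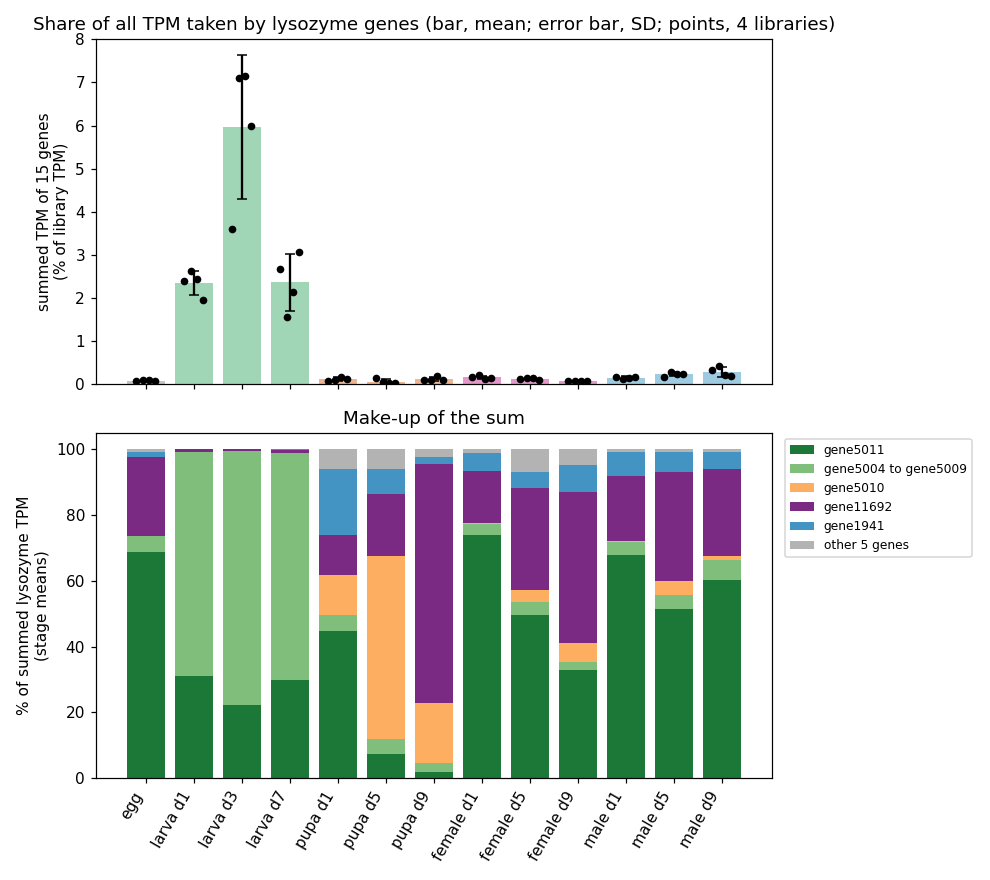
The upper panel gives the summed TPM of 15 lysozyme genes as a percentage of library TPM (bars, means; error bars, SD; points, 4 libraries), and the lower panel the make-up of the stage means. The sum peaked at 5.96% in the 3-d-old larva, and gene5004 to gene5009 together were its largest part in larvae. By stage means the largest part was gene5011 (44.8%) in the 1-d-old, gene5010 (55.7%) in the 5-d-old and gene11692 (72.7%) in the 9-d-old pupa. The part of gene5010 rested on replicate 1 of the 5-d-old pupa (1033 of 1416 TPM), against 75.7 of 317 TPM in replicate 4.

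The lysozyme genes differed in when they were used. The highest stage mean fell in the 3-d-old larva for 6 genes, in the 1-d-old pupa for 3, in the 5-d-old pupa for 2, and in the egg, L1, P9 and F5 for 1 each. Of the 11239 genes of the table that reached a stage mean of 10 TPM, 3.14% had their highest mean in the 3-d-old larva. The share was 16.9% for the 1-d-old pupa and 5.5% for the 5-d-old pupa. It was 6.85% for the egg, 4.41% for L1, 5.89% for P9 and 1.11% for F5. The 15 lysozymes include gene7582 (highest in the egg) and gene7583 (highest in the 1-d-old pupa), which did not reach 10 TPM. In the RefSeq gene order of assembly idZeuCucr1.2 (all 15 symbols matched), gene5004 to gene5012 formed a run of 9 lysozymes broken only by 1 protein-coding gene and 1 small nuclear RNA gene, with gene5007 and gene5008 in swapped order. The 3 lysozyme P-like genes, gene7582 to gene7584, lay side by side, as did gene1940 and gene1941, and gene11692 lay alone. The run of 9 thus held the larval genes next to gene5010, which was highest in pupae, and gene5012, which was highest in females. The authors kept reads that matched the genome once, and whether neighbouring copies with the same name share reads was not examined, so the split of TPM between gene5004 to gene5008 is uncertain.

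From the egg to the 1-d-old larva 7 of the 9 lysozymes of the run rose, all but gene5010 and gene5012. Between the egg and the 1-d-old larva 8 of 15 lysozyme genes were differentially expressed, 7 higher and 1 lower, where 7.09% of all genes tested were. The median change of the 15 genes was 0.34 on the log2 scale, against -0.35 over all genes. Scaling the libraries by median-of-ratios size factors moved that median of all genes to -0.04, so that rises of lysozyme genes were larger relative to the other genes.

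gene5011 (LOC105211204, lysozyme 1-like) was the only larval lysozyme with a high level in the egg, at 586, 667, 684 and 552 TPM. It had 7263, 7290.3, 8170.2 and 6707 TPM in the 1-d-old larva (log2 fold change 3.56 ± 0.32, adjusted p = 6.81e-13). The 4 larval libraries lay far above the 4 egg libraries, and the gene alone made up 68.6% of egg lysozyme TPM and 31.2% of that of the 1-d-old larva, where it ranked 6 among all genes.

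The 5 lysozyme B-like genes started from low levels. gene5008 (LOC105211208) had 18.8, 24, 17.6 and 10.8 TPM in the egg and 5636, 6394, 5679.8 and 4546 TPM in the 1-d-old larva (log2 fold change 8.25 ± 0.60, adjusted p = 1.01e-15). gene5006 (LOC105211210) had 18.9, 19.6, 27.8 and 10 TPM and then 3996, 4422, 4221 and 3267 TPM (log2 fold change 7.70 ± 0.45, adjusted p = 1.09e-18). The larval libraries of both lay far above all egg libraries. gene5004 (LOC105211212) had 7.6, 5.89, 3.47 and 2.83 TPM in the egg and 3699, 4061, 3402 and 2548 TPM in the 1-d-old larva (log2 fold change 9.23 ± 0.58, adjusted p = 1.32e-17). gene5007 (LOC105211209) went from 2.14, 3.69, 1.36 and 1.16 TPM to 1566, 2137, 1371 and 1229.5 TPM (log2 fold change 9.03 ± 0.49, adjusted p = 9.39e-20). gene5005 (LOC105211211) was the lowest of the 5 in the egg, at 0.43, 1.24, 0.32 and 1.07 TPM, and had 1541, 1633, 1348 and 989 TPM in the 1-d-old larva (log2 fold change 9.62 ± 0.56, adjusted p = 7.55e-19). The groups did not overlap for any of the 5 genes.

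gene5009 (LOC105211207, lysozyme E-like) followed at a much lower level, from 0.38, 0.77, 0.79 and 0.68 TPM in the egg to 66.8, 76.5, 129 and 58.5 TPM in the 1-d-old larva (log2 fold change 5.60 ± 0.69, adjusted p = 2.21e-09). gene7582 (LOC105213973, lysozyme P-like) moved the other way. It had 4.92, 4.46, 9.46 and 5.18 TPM in the egg and 0.44, 0.68, 0.28 and 0.58 TPM in the 1-d-old larva (log2 fold change -2.18 ± 0.21, adjusted p = 3.04e-12), and it stayed below 1 TPM in every later library. Its call was lost with median-of-ratios scaling (-1.81) and without replicate 3 of the egg (-1.97), the egg library in which it was highest.

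Genes that work beside lysozymes were counted by product name. Of 12 peptidoglycan recognition proteins, which bind or cut bacterial cell wall, 3 rose and none fell from the egg to the 1-d-old larva. Of 24 antimicrobial peptide genes 8 rose and 1 fell, and of 82 trypsins and chymotrypsins, the protein-digesting enzymes, 13 rose and 3 fell. Of 14 genes of the peritrophic matrix, the lining that separates food from the midgut wall, 1 rose and none fell. Over all genes tested 2.64% rose and 4.45% fell. Read length was of the shorter class in all egg libraries and of the longer class in all of the 1-d-old larva, so class and stage cannot be told apart here.

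Within larval life the summed lysozyme TPM was highest at day 3, and few single lysozyme genes passed the threshold. From day 1 to day 3 of the larva 2 of 15 lysozyme genes were differentially expressed, 1 higher and 1 lower, beside 3.23% of all genes. From day 3 to day 7 1 of 15 fell, beside 3.23% of all genes. gene5005 had 3469, 12884, 8922 and 11219 TPM in the 3-d-old larva, above all 4 libraries of the 1-d-old larva (log2 fold change 2.59 ± 0.56, adjusted p = 1.63e-04). In the 7-d-old larva it had 2472, 1706, 2771 and 3570.0 TPM, and replicate 4 of that stage overlapped with replicate 1 of the 3-d-old larva (log2 fold change -1.69 ± 0.56, adjusted p = 0.0184).

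gene5004 had 6403, 17869, 16464 and 16553 TPM in the 3-d-old larva and 3840.4, 2393, 3655 and 5341 TPM in the 7-d-old larva. Its change from the 1-d-old larva lay just under the threshold (log2 fold change 1.98 ± 0.58, adjusted p = 0.00498), although the libraries did not overlap. gene5011 had 11275, 15312, 13019.7 and 13192 TPM in the 3-d-old larva and 8689, 5700.2, 6617 and 7252 TPM in the 7-d-old larva, a change of 0.84 ± 0.32 and then -0.91 ± 0.32 on the log2 scale. Replicate 1 of the 3-d-old larva was the lowest of its stage for both genes, by a wide margin for gene5004 and a narrow one for gene5011.

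gene5008 had 7564, 13016, 15738 and 9294 TPM in the 3-d-old larva and 6254, 2839, 4469 and 7920.2 TPM in the 7-d-old larva, and gene5006 had 5825, 10264, 13470.1 and 7502 TPM and 4872, 2096, 3433 and 5868 TPM. Replicate 3 of the 3-d-old larva, and replicate 4 of the 7-d-old larva, were the highest of their stages for both genes. The changes of gene5006 were under the threshold, at 1.16 ± 0.45 (adjusted p = 0.0346) and then -1.22 ± 0.45 (adjusted p = 0.0379) on the log2 scale.

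gene5007 fell in the last of these steps. It had 1151, 1399.9, 3523 and 1729 TPM in the 3-d-old larva and 465, 333, 399 and 494 TPM in the 7-d-old larva (log2 fold change -2.08 ± 0.49, adjusted p = 8.37e-04). All 4 libraries of the 7-d-old larva lay below those of both earlier ages. The call rested on replicate 3 of the 3-d-old larva, since without it the change was -1.75 and under the threshold, and likewise without replicate 2 of the 7-d-old larva (-1.97). gene5009 had 18, 2.51, 114 and 0 TPM in the 3-d-old larva (log2 fold change -3.09 ± 0.69, adjusted p = 2.56e-04) and 16.9, 0.35, 2.91 and 20.7 TPM in the 7-d-old larva. At 114 TPM, replicate 3 of the 3-d-old larva lay within the range of the 1-d-old larva (58.5 to 129 TPM), whereas replicate 4 of the same stage was listed at 0. In a fit on the 2 stages alone the adjusted p of this change was 0.155. gene1941 (LOC105221247, lysozyme c-1) had 13.9, 10.9, 11.4 and 9.07 TPM in the 1-d-old larva and 31.8, 50.8, 14.4 and 53.5 TPM in the 3-d-old larva, a change under the threshold (log2 fold change 1.5 ± 0.27, adjusted p = 1.21e-05). Here replicate 3 of the 3-d-old larva was the lowest of its stage and lay close to the 1-d-old larva.

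As shares of the 6 abundant genes, gene5005 made up 5.88% ± 0.64 (SD, n = 4) at day 1, 14.8% ± 4.44 at day 3 and 11.3% ± 1.53 at day 7 of the larva. gene5007 went from 6.72% ± 1.09 to 3.27% ± 1.24 and 1.86% ± 0.25. gene5004 held 14.6% ± 1.20, 23.5% ± 4.20 and 16.2% ± 1.40. gene5006 kept between 12.6% and 19.3% in all 12 larval libraries. gene5011 ranged from 18.3% to 37.8%. The shares of gene5005 in the 1-d-old larva (5.13% to 6.5%) lay below those of every older larva (9.30% to 18.9%), and those of gene5007 in the 7-d-old larva (1.62% to 2.21%) lay below those of the 1-d-old larva (5.67% to 8.24%).

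**Figure D3:**
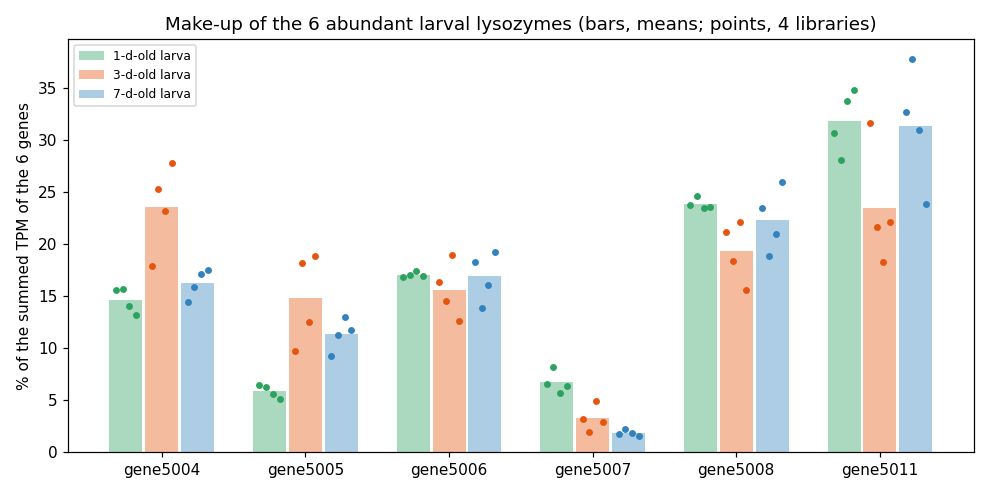
Share of each of 6 genes in their summed TPM, in percent, for 1-, 3- and 7-d-old larvae (bars, means; points, 4 libraries). The mean share of gene5005 was 5.88% at day 1 and 14.8% at day 3 of the larva, while that of gene5007 went from 6.72% to 1.86% over the 3 ages.

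With the change to the pupa 7 lysozymes that were abundant or highest in larvae fell and 4 others rose. Between the 7-d-old larva and the 1-d-old pupa 11 of 15 lysozyme genes were differentially expressed, 4 higher and 7 lower, where 17.2% of all genes tested were. All 11 separated the 4 larval from the 4 pupal libraries, and how many of all genes did so was not counted. The median change of all genes was 0.67, and 0.03 after median-of-ratios scaling, so that, relative to the other genes, the falls were larger and the rises smaller. After that scaling the share of higher genes among all genes called went from 71.2% to 30.2%.

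The 7 genes that fell were those that had risen from the egg to the 1-d-old larva. gene5008 went from 2839 to 7920 TPM in the 7-d-old larva to 5.81, 43.4, 3.12 and 3.82 TPM in the 1-d-old pupa (log2 fold change -9.15 ± 0.60, adjusted p = 1.16e-17). gene5004 had 9.49, 37.1, 4.94 and 5.01 TPM in the 1-d-old pupa (log2 fold change -8.39 ± 0.58, adjusted p = 8.22e-17), and gene5005 had 4.73, 32, 8.5 and 6 TPM (log2 fold change -7.91 ± 0.56, adjusted p = 1.22e-16). Replicate 2 of the 1-d-old pupa was several times higher than the other replicates for these 3 genes. In that library the summed trypsins and chymotrypsins (1025 TPM, against 1041 to 1263 TPM in the other replicates) were not raised, and the summed peritrophic matrix genes were highest (73.0 TPM, against 38.5 to 55.9 TPM), and the part of either in the lysozyme values was not tested. gene5006 had 15.4, 28.8, 20.8 and 14.4 TPM (log2 fold change -7.56 ± 0.45, adjusted p = 5.64e-19). gene5007 had 0.28, 2.15, 0.27 and 0 TPM (log2 fold change -8.12 ± 0.49, adjusted p = 8.44e-19), and gene5009 had 0, 0, 0.27 and 0 TPM (log2 fold change -2.66 ± 0.69, adjusted p = 6.95e-04).

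gene5011 kept the highest level of the 7, with 297, 499, 1026 and 431 TPM in the 1-d-old pupa (log2 fold change -3.78 ± 0.32, adjusted p = 4.56e-14), a range that held all 4 values of the egg. It then had 74.7, 40.6, 48.2 and 36.9 TPM in the 5-d-old pupa (log2 fold change -3.36 ± 0.32, adjusted p = 3.15e-12) and 12.1, 33.7, 23.3 and 33.3 TPM in the 9-d-old pupa (log2 fold change -0.99 ± 0.32, adjusted p = 0.00892). Its libraries of the 3 pupal ages did not overlap, with each age below the one before, and the mean of the 9-d-old pupa was its lowest of the series. The 5 lysozyme B-like genes stayed at low levels in later pupae. In the 5-d-old and 9-d-old pupa their libraries ranged from 2.95 to 15.5 TPM for gene5004, 1.06 to 8.62 TPM for gene5005, 4.67 to 23.6 TPM for gene5006, 0 to 3.33 TPM for gene5007 and 2.04 to 15 TPM for gene5008. gene5006, the highest of the 5 there by its mean, had 23.6, 5.15, 11 and 4.67 TPM in the 5-d-old pupa and 12, 4.74, 7.44 and 22.2 TPM in the 9-d-old pupa.

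**Figure D4:**
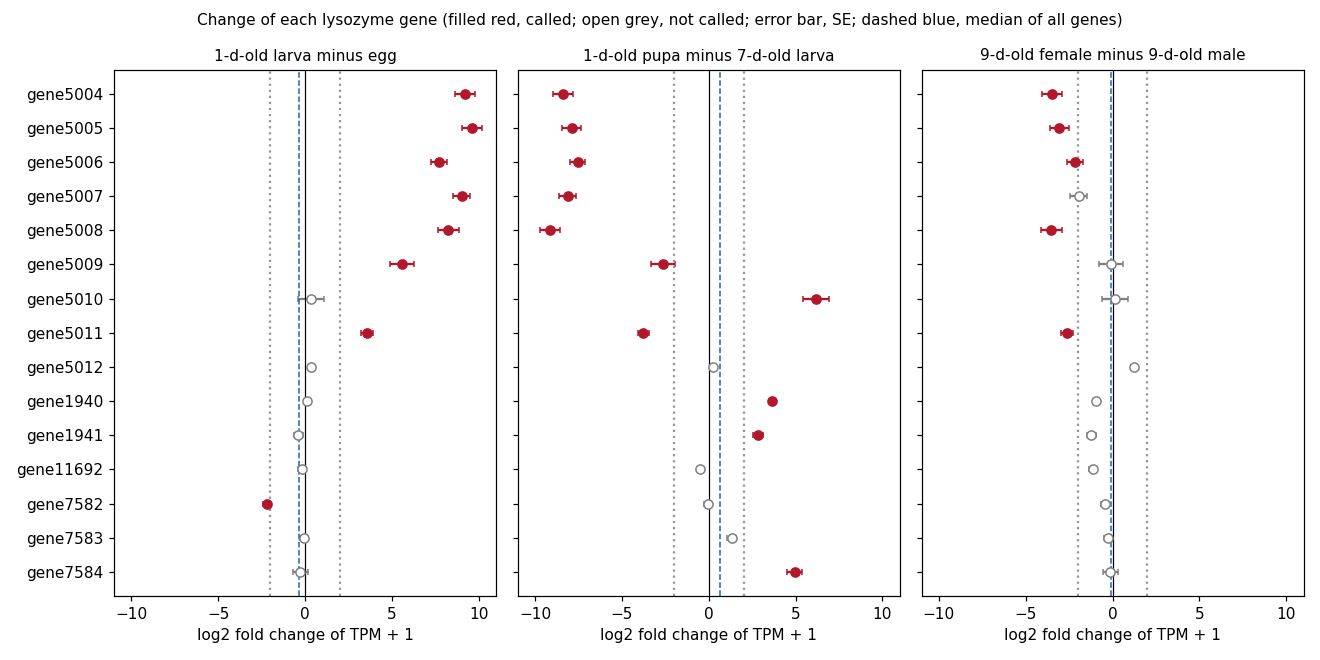
Log2 fold change of TPM + 1 for 15 lysozyme genes in 3 comparisons (points, filled red where differentially expressed; bars, SE; dotted lines, the threshold of 2; dashed line, median of all genes). The larval genes reached a change of 9.62 in the 1-d-old larva and of -9.15 in the 1-d-old pupa, and 5 of them were lower in 9-d-old females than in males.

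The 4 genes that rose differed in how long they stayed high. gene1940 (LOC105221249, lysozyme) had 0.59, 0.64, 0.73 and 0.44 TPM in the 7-d-old larva and 19.8, 19.3, 17.9 and 19.9 TPM in the 1-d-old pupa (log2 fold change 3.66 ± 0.18, adjusted p = 7.13e-22). It had 46.5, 35, 41.6 and 36.5 TPM in the 5-d-old pupa and 28.2, 26.9, 26 and 31.3 TPM in the 9-d-old pupa. No library outside the pupa was above 13.5 TPM, the 12 pupal libraries lay between 17.9 and 46.5 TPM, and the 3 pupal ages did not overlap with each other.

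gene1941, its neighbour, was highest in the 1-d-old pupa. It had 13.5, 18.5, 12.6 and 16.1 TPM in the egg, 32.9, 39.4, 29.6 and 35.6 TPM in the 7-d-old larva and 254, 238, 247 and 266 TPM in the 1-d-old pupa (log2 fold change 2.84 ± 0.27, adjusted p = 1.05e-12). It then fell to 72.2, 75.5, 28 and 24.9 TPM in the 5-d-old pupa (log2 fold change -2.48 ± 0.27, adjusted p = 9.70e-11). Replicates 1 and 2 of the 5-d-old pupa lay well above replicates 3 and 4. Both calls were lost with median-of-ratios scaling, at 1.43 and -1.92, with the direction kept. In the 9-d-old pupa gene1941 had 23.6, 26.1, 44.8 and 24.8 TPM, with replicate 3 above the others, so that later pupae lay below adults in their means.

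gene7584 (LOC105213975, lysozyme P-like) was close to a marker of the 1-d-old pupa. It had 16.1, 5.59, 55.2 and 143 TPM there and was listed at 0 in all 12 larval libraries (log2 fold change 4.95 ± 0.43, adjusted p = 6.93e-14). The SE rests on 1 spread per gene over all 13 stages, and 36 of 52 libraries were listed at 0. It therefore understates the spread between pools of the 1-d-old pupa, as does the adjusted p. In the 5-d-old pupa it had 2.02, 0.33, 0.27 and 1.72 TPM (log2 fold change -4.0 ± 0.43, adjusted p = 6.30e-11), and no library outside the 1-d-old pupa was above 2.02 TPM. The 1-d-old pupa held 96.2% of the sum of its 13 stage means, with a spread between replicates from 5.59 to 143 TPM. gene7583 (LOC105213974, lysozyme P-like), next to it, had 0, 0.75, 2.8 and 4.66 TPM in the 1-d-old pupa and at most 0.8 TPM in any other library, with a change under the threshold (log2 fold change 1.31 ± 0.24, adjusted p = 5.28e-06). The same limit holds for the SE of gene7583, which was listed at 0 in 43 libraries. Both genes were highest in replicate 4 and next highest in replicate 3 of the 1-d-old pupa.

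gene5010 (LOC105211205, lysozyme 1-like) varied widely between replicates. It was listed at 0 in all 4 egg libraries and was at or under 2.04 TPM in every larval library. In the 1-d-old pupa it had 67.6, 125, 194 and 226 TPM (log2 fold change 6.17 ± 0.75, adjusted p = 9.42e-10). In the 5-d-old pupa it had 1033, 289.8, 114 and 75.7 TPM and in the 9-d-old pupa 16.7, 75.5, 810.2 and 38.6 TPM. A single library per stage stood far above the rest, replicate 1 of the 5-d-old pupa and replicate 3 of the 9-d-old pupa. The summed TPM of the 24 antimicrobial peptides was 412, 4371, 419 and 61.7 in the 5-d-old pupa and 46.2, 256, 150.1 and 84.4 in the 9-d-old pupa, so its highest library in both stages was replicate 2. At 289.8 and 75.5 TPM gene5010 was second highest in those 2 libraries. A relation between them was not tested.

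Over the first days of the pupa (P5 minus P1) 3 of 15 lysozyme genes fell (gene1941, gene5011 and gene7584) and none rose, beside 12.2% of all genes called. Over the later days (P9 minus P5) 1 of 15 rose and none fell, beside 7.07% of all genes. The gene that rose was gene11692 (LOC105218452, lysozyme-like), which was present in every library of the series. It had 200.02, 201, 222 and 242 TPM in the egg and 213, 178, 173 and 204 TPM in the 1-d-old larva. In the 3-d-old larva it had 196, 261, 299 and 245 TPM and in the 7-d-old larva 147, 509.6, 146 and 177 TPM, with replicate 2 of the latter far above the rest. In the 1-d-old pupa it had 168, 107, 159 and 173 TPM. Apart from that one library its levels up to this stage lay between 107 and 299 TPM. It had 129, 157, 97.7 and 127 TPM in the 5-d-old pupa and 1000.2, 912, 1069 and 799 TPM in the 9-d-old pupa (log2 fold change 2.89 ± 0.21, adjusted p = 2.40e-15). Its 4 libraries of the 9-d-old pupa lay above every egg, larval, earlier pupal and female library. Of these 4 libraries 3 had under 70% of reads mapped, and the remaining one, replicate 2, had 912 TPM.

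Other genes of the gut and of immunity changed in the same step from larva to pupa. Of 14 peritrophic matrix genes 13 fell and none rose, and of 12 cathepsin D-like aspartic proteases, which are digestive enzymes in the midgut of other flies, 9 fell and 1 rose. Of 82 trypsins and chymotrypsins 33 fell and 3 rose. Over all genes tested 4.95% fell and 12.2% rose. Of 24 antimicrobial peptide genes 13 rose and none fell, and of 12 peptidoglycan recognition proteins 3 rose and 4 fell. Their median changes were -6.24 for the peritrophic matrix, -4.92 for the cathepsin D-like proteases, -0.60 for the trypsins and chymotrypsins, 2.56 for the antimicrobial peptides and 0.09 for the peptidoglycan recognition proteins, against 0.67 over all genes. The log2 fold changes of the 7 lysozymes that fell ran from -2.66 to -9.15. The read lengths of the 1-d-old pupa were all of the shorter class, as were those of replicates 3 and 4 of the 7-d-old larva. The other 2 larval libraries were of the longer class, and a part of read length in these changes was not tested.

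Emergence of the adult was followed in each sex. From the 9-d-old pupa to the 1-d-old female 4 of 15 lysozyme genes were differentially expressed, 2 higher and 2 lower, beside 8.79% of all genes. To the 1-d-old male the count was also 4, with 2 higher and 2 lower, beside 5.08% of all genes. Both comparisons share the libraries of the 9-d-old pupa. gene5011 returned, with 1341, 1655, 918 and 1058 TPM in the 1-d-old female (log2 fold change 5.61 ± 0.32, adjusted p = 1.34e-18) and 1259.7, 749, 995 and 1319 TPM in the 1-d-old male (log2 fold change 5.41 ± 0.32, adjusted p = 4.27e-18). Every 1-d-old adult library was at 749 TPM or more, and no library of the 9-d-old pupa was above 33.7 TPM.

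gene5012 (LOC105211203, lysozyme D-like) was above 1 TPM in adults alone. It was at or under 0.97 TPM in all 28 libraries of the egg, larva and pupa, 14 of them listed at 0. It had 11.5, 13.2, 12.4 and 10.9 TPM in the 1-d-old female (log2 fold change 3.64 ± 0.16, adjusted p = 1.31e-22) and 8.08, 7.64, 8.84 and 11.7 TPM in the 1-d-old male (log2 fold change 3.26 ± 0.16, adjusted p = 5.53e-21). The 2 genes that fell, gene1940 and gene5010, both had their highest mean in the 5-d-old pupa. gene1940 had 4.96, 5.79, 6.67 and 7.43 TPM in the 1-d-old female (log2 fold change -2.02 ± 0.18, adjusted p = 7.54e-13) and 6.05, 6.27, 5.51 and 5.42 TPM in the 1-d-old male (log2 fold change -2.09 ± 0.18, adjusted p = 3.66e-13). The call in females was lost with median-of-ratios scaling (-1.85), without the low-mapping libraries (-1.97), and without replicate 1 or 2 of the 1-d-old female or replicate 4 of the 9-d-old pupa (-1.93 to -2.0). gene5010 had 0.47, 11.8, 9.08 and 5.09 TPM in the 1-d-old female (log2 fold change -3.80 ± 0.75, adjusted p = 3.86e-05) and 3.34, 6.07, 1.14 and 2.58 TPM in the 1-d-old male (log2 fold change -4.37 ± 0.75, adjusted p = 5.75e-06).

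Changes with age were followed within each sex. In females 2 of 15 lysozyme genes rose from day 1 to day 5 and none fell, beside 7.81% of all genes. gene5012 had 78.6, 94.8, 84.3 and 85 TPM in the 5-d-old female (log2 fold change 2.74 ± 0.16, adjusted p = 5.73e-19), its highest level of the series, and 27.7, 31.2, 42 and 26.8 TPM in the 9-d-old female. gene5010 had 11.4, 104, 52.6 and 14.2 TPM in the 5-d-old female (log2 fold change 2.46 ± 0.75, adjusted p = 0.00517), with replicate 1 inside the range of the 1-d-old female. That call was lost without replicate 1 of the 1-d-old female (1.80) or replicate 2 of the 5-d-old female (1.89). From day 5 to day 9 none of the 15 genes was differentially expressed by limma, beside 0.766% of all genes at the same thresholds. An unadjusted p under 0.05 was found for 5, and the share of all genes at that looser level was not counted. Of these 5, gene5004, gene5005, gene5011 and gene5012 were lower at an adjusted p under 0.05 and missed only the fold change threshold. The change of gene5012 was -1.42 ± 0.16 on the log2 scale (adjusted p = 6.65e-10). gene5011 had 631, 753, 765 and 402 TPM in the 5-d-old female and 280.3, 284, 243 and 193 TPM in the 9-d-old female (log2 fold change -1.32 ± 0.32, adjusted p = 7.24e-04), with no overlap. gene5010 had 32.5, 24.3, 27.8 and 95.4 TPM in the 9-d-old female, with replicate 4 the highest.

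In males 1 of 15 rose from day 1 to day 5 and none fell, beside 2.58% of all genes. It was gene5010, with 108, 61.6, 111 and 141 TPM in the 5-d-old male (log2 fold change 4.71 ± 0.75, adjusted p = 3.14e-06) and 42.2, 32.8, 24.2 and 45 TPM in the 9-d-old male. From day 5 to day 9 1 of 15 rose, beside 0.322% of all genes. gene5008 had 0.47, 17.7, 2.79 and 11.7 TPM in the 5-d-old male and 56, 26.2, 19.9 and 13.6 TPM in the 9-d-old male (log2 fold change 2.12 ± 0.60, adjusted p = 0.0219). The ranges overlapped, and the call was lost without any one of replicates 1 and 3 of the 5-d-old male and 1 and 2 of the 9-d-old male (1.44 to 2.1). gene11692 had 328, 277, 360.2 and 295 TPM in the 1-d-old male, 706, 1022, 652 and 795 TPM in the 5-d-old male and 787, 790.2, 737 and 755 TPM in the 9-d-old male, a change of 1.32 ± 0.21 between the first 2 ages with no overlap. In females it had 295, 228, 263 and 259.9 TPM at day 1, 315, 402, 404 and 469 TPM at day 5 and 339.8, 353, 371 and 333 TPM at day 9. No change of gene11692 with age was past the threshold in either sex. Read length was of the shorter class at day 1 and of the longer class at days 5 and 9 in both sexes, so within a sex it cannot be told apart from the step from day 1 to day 5.

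The lysozyme B-like genes were at low levels in adults. gene5004 had 9.44, 38.9, 4.86 and 13.5 TPM in the 1-d-old and 15.6, 7.43, 14.8 and 7.58 TPM in the 5-d-old female, and 3.78, 8.25, 32 and 33.4 TPM in the 1-d-old and 4.37, 29.1, 52.6 and 16.5 TPM in the 5-d-old male. gene5005 had 12.3, 43.8, 9.23 and 19 TPM and 28.3, 14.8, 21.5 and 17.7 TPM in those females and 5.64, 12, 48.5 and 40.8 TPM and 9.81, 48.4, 86.9 and 43.8 TPM in those males. Both genes were highest in replicate 2 of the 1-d-old female and in replicate 3 of the 5-d-old male, and replicates 3 and 4 of the 1-d-old male stood above replicates 1 and 2. gene5006 had 18.4, 23.4, 9.91 and 16.6 TPM and 13.7, 20.3, 13.8 and 8.08 TPM in the females and 11.7, 13.5, 10.4 and 16 TPM and 10.9, 26.2, 12.8 and 23.2 TPM in the males of the same ages.

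gene1941 lay above these genes in adults, and none of its changes with age within a sex was past the threshold. It had 109.9, 99.8, 92.6 and 78.7 TPM in the 1-d-old, 54.8, 66.1, 67.1 and 64.3 TPM in the 5-d-old and 69.7, 62.5, 60.4 and 61.7 TPM in the 9-d-old female. In males it had 125, 108, 138 and 83.7 TPM at day 1, 146, 128, 171 and 147 TPM at day 5 and 153, 176, 151 and 123 TPM at day 9. Every male library of days 5 and 9 was above every female library of those days, with a difference under the threshold (-1.22 ± 0.27 and -1.22 ± 0.27 on the log2 scale, females minus males).

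The sexes were then compared at each age. At day 1 none of 15 lysozyme genes was differentially expressed by limma between females and males, beside 4.64% of all genes. An unadjusted p under 0.05 was found for 2, and the share of all genes at that looser level was not counted. At day 5 the count was 2, 1 higher and 1 lower in females, beside 10.7% of all genes. gene5012 was higher in females, where it had 78.6 to 94.8 TPM, than in males, where it had 9.13, 16, 11.6 and 11.9 TPM (log2 fold change 2.74 ± 0.16, adjusted p = 6.77e-19). The 5-d-old males lay close to the 9-d-old males, which had 12.4, 11, 11.5 and 16.5 TPM. gene5008 was lower in females, with 0, 0.69, 0.25 and 1.34 TPM (log2 fold change -2.02 ± 0.60, adjusted p = 0.0036), and replicate 1 of the males lay inside the female range. The call for gene5008 was lost in 4 of the fits that left out 1 library (-1.47 to -1.93).

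At day 9 the count was 5 of 15, all lower in females, beside 16.9% of all genes. The median difference of the 15 genes was -1.13, against -0.12 over all genes. gene5011 had 280.3, 284, 243 and 193 TPM in females and 2054, 3100.4, 1019 and 857 TPM in males (log2 fold change -2.63 ± 0.32, adjusted p = 1.31e-09). gene5004 had 2.57, 3.15, 1.7 and 2.96 TPM and 57.7, 33.5, 39.1 and 30.8 TPM (log2 fold change -3.50 ± 0.58, adjusted p = 1.10e-06), and gene5005 had 5.71, 8.82, 5.87 and 4.63 TPM and 82.2, 52.1, 66.8 and 40.5 TPM (log2 fold change -3.06 ± 0.56, adjusted p = 5.21e-06). No female library reached the lowest male library for any of the 3 genes. gene5008 had 1.13, 1.81, 1.39 and 0.82 TPM in females against 13.6 to 56 TPM in males (log2 fold change -3.54 ± 0.60, adjusted p = 1.47e-06). gene5006 had 3.81, 10.1, 8.05 and 5.75 TPM in females and 68.3, 63.6, 23.5 and 11.5 TPM in males (log2 fold change -2.18 ± 0.45, adjusted p = 4.11e-05), and fell under the threshold without replicate 1 of the females or replicate 1 or 2 of the males (-1.84 to -1.96). These 5 are among the 7 genes that rose from the egg to the 1-d-old larva, here at levels far below those of larvae.

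**Figure D5:**
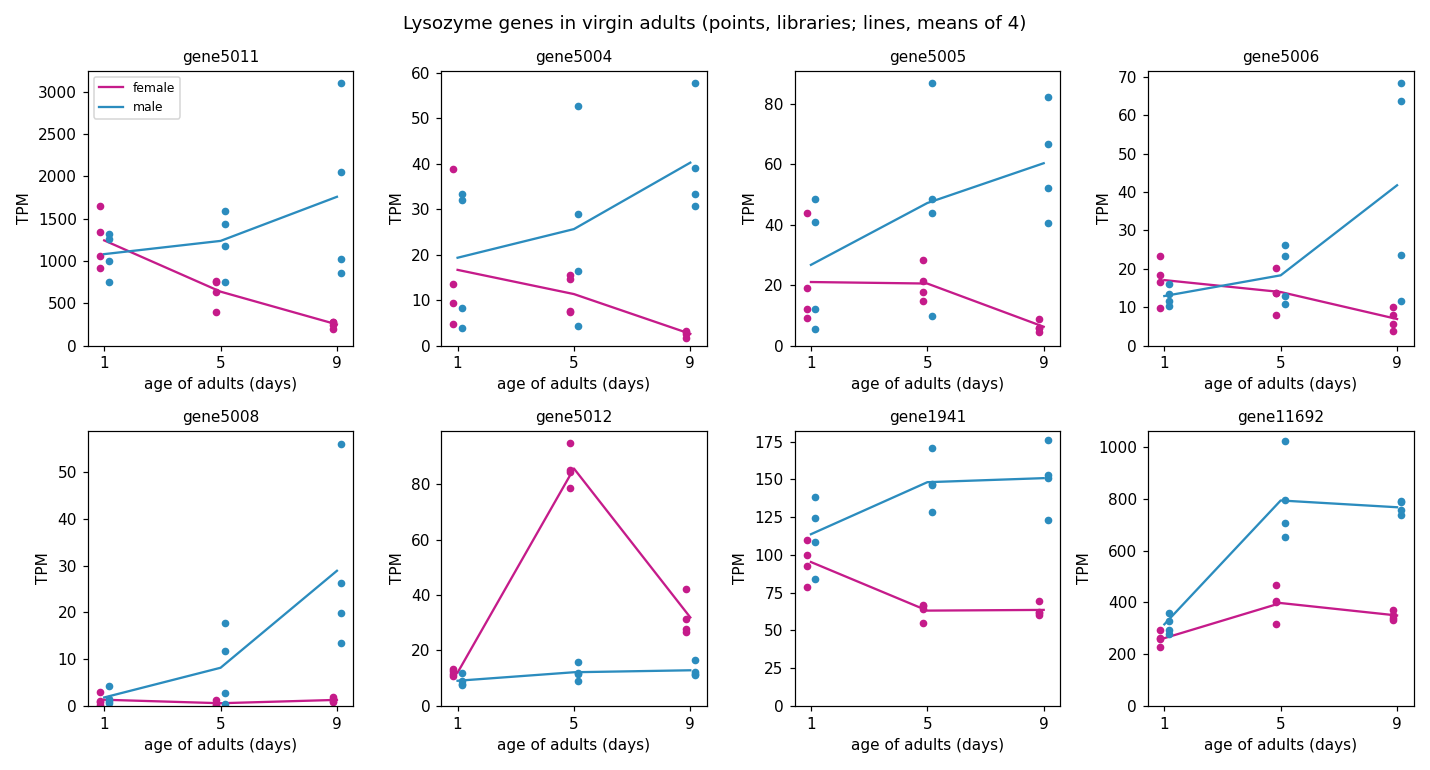
TPM of 8 lysozyme genes in virgin females and males against age in days (points, libraries; lines, means of 4). In females gene5011 went from a mean of 1243 TPM at day 1 to 250.3 TPM at day 9, and in males from 1081 TPM to 1758 TPM, while gene5012 peaked in 5-d-old females at 85.7 TPM.

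Whether the 2 sexes changed by unequal amounts from day 1 to day 9 was tested in the same fit. It was past the threshold, and lower in females, for 5 of 15 lysozyme genes and higher for none, beside 13.8% of all genes. At an adjusted p under 0.05 and any fold change, 9 of 15 were lower, beside 23.3% of all genes, and gene5012 was higher (0.86 ± 0.23). For gene5011 the change was -2.29 ± 0.32 in females and 0.54 ± 0.32 in males, a difference of -2.83 ± 0.46 (adjusted p = 8.54e-07). For gene5004 it was -1.95 ± 0.58 and 1.42 ± 0.58 (log2 fold change -3.37 ± 0.83, adjusted p = 5.27e-04), and for gene5008 0.10 ± 0.60 and 3.38 ± 0.60 (log2 fold change -3.28 ± 0.85, adjusted p = 9.73e-04). With median-of-ratios scaling the share of higher genes among all genes called in this test went from 84.3% to 43.6%, and all 5 lysozyme calls stayed.

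The male libraries were not uniform. In the 9-d-old male gene5011 was highest in replicates 1 and 2 (2054 and 3100.4 TPM) and lower in replicates 3 and 4 (1019 and 857 TPM), and gene5006 divided the replicates in the same manner. In the 5-d-old male gene5011 had 748, 1594, 1431 and 1174 TPM, with replicate 1 the lowest. The summed antimicrobial peptides of the 9-d-old male ran the other way, lower in replicates 1 and 2 than in replicates 3 and 4 (7925, 11147, 28304 and 40767 TPM). In the 5-d-old male these sums were 17535, 24945, 5481 and 6806 TPM. There replicate 2 was the highest for both the peptides and gene5011, and replicate 1 was second highest for the peptides. Of 24 antimicrobial peptide genes 18 were lower and 1 higher in 9-d-old females than in males, and of 12 peptidoglycan recognition proteins 4 were lower and none higher. Over all genes tested 6.81% were lower and 10.1% higher. Whether these genes and the lysozymes are related within males was not tested, with 4 libraries per age.

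Pooling ages gave the larger picture with more libraries. Between 12 larval and 12 pupal libraries 10 of 15 lysozyme genes were differentially expressed, 7 higher and 3 lower in larvae, beside 12.2% of all genes. Between 24 adult and 12 pupal libraries the count was 5, 2 higher and 3 lower in adults, beside 7.31% of all genes. Between larvae and adults it was 10, 7 higher and 3 lower in larvae, beside 14.2% of all genes. These comparisons share libraries and are not independent of each other.

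The 7 genes higher in larvae were gene5004 to gene5009 and gene5011 in both comparisons, which have the larval libraries in common. The difference from pupae was largest for gene5008 (log2 fold change 9.77 ± 0.35, adjusted p = 4.12e-27) and smallest for gene5009 (log2 fold change 3.92 ± 0.40, adjusted p = 5.44e-12). The difference from adults was 10.80 ± 0.30 for gene5008, 8.64 ± 0.29 for gene5004 and 3.38 ± 0.16 for gene5011. gene5011 was the one of the 7 that was also higher in adults than in pupae (log2 fold change 3.31 ± 0.16, adjusted p = 4.98e-22), although its libraries of the 1-d-old pupa overlapped with those of adults. gene5012 was higher in adults than in pupae (log2 fold change 4.12 ± 0.08, adjusted p = 8.23e-37), with every adult library at 7.64 TPM or more.

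The 3 genes lower in larvae than in pupae were gene1940 (log2 fold change -3.97 ± 0.10, adjusted p = 5.82e-32), gene5010 (log2 fold change -6.35 ± 0.43, adjusted p = 2.93e-17) and gene7584 (log2 fold change -2.13 ± 0.25, adjusted p = 1.98e-10), and each of them was also lower in adults than in the same pupal libraries. For gene7584 both differences fell under the threshold without replicate 4 of the 1-d-old pupa (-1.89 and -1.83). The 3 genes lower in larvae than in adults were gene1941 (log2 fold change -2.02 ± 0.13, adjusted p = 9.46e-18), gene5010 and gene5012. That of gene1941 fell to -1.18 with median-of-ratios scaling.

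The likeness of the genes' profiles was described by Pearson's r of log2(TPM + 1) over 13 stage means, which share stages and libraries and are not a test. Among gene5004 to gene5008 r lay between 0.89 and 0.99, and gene5011 had r of 0.71 to 0.83 with them. With the stage means taken out, over 52 libraries, gene5004 had r of 0.86 with gene5005, 0.81 with gene5007, 0.65 with gene5008, 0.45 with gene5006 and 0.01 with gene5009. Replicate 2 of the 1-d-old pupa and of the 1-d-old female, for one, held the highest gene5004, gene5005 and gene5007 of their stages.

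Outside the family, the profile most like that of gene5008 was a peptidoglycan recognition protein SC2-like gene (gene4528, r 0.98), of a type that degrades peptidoglycan in Drosophila. gene5006 and gene5007 were nearest to a phospholipase A1-like gene (gene9123, r 0.98 for each), gene5004 to probable chitinase 3 (gene24, r 0.97) and gene5005 to a trypsin alpha-like gene (gene5039, r 0.96). gene5011 was nearest to chymotrypsin-1-like and chymotrypsin-2-like genes (gene3452 and gene3453, r 0.96 for each). For gene5009 the 3 nearest genes were all serine proteases 1/2-like (gene772, gene771 and gene768, r 0.98 to 0.99). A C-type lectin (gene10385) was among the 3 nearest of gene5006, gene5007 and gene5008, and a transporter among those of gene5004, gene5007 and gene5011.

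The other lysozymes had other neighbours in profile. gene5012 was nearest to vitellogenin-1-like (gene7401, r 0.98), a gene of the yolk protein family that reached 19.4 TPM in the 5-d-old female. In males gene7401 had stage means of 3.4 to 8.4 TPM. Almost as near was an acidic leucine-rich nuclear phosphoprotein 32-like gene (gene12317, r 0.98), with 26383 TPM in the 5-d-old female. gene7584 was nearest to a glucose dehydrogenase-like gene (gene6380), a kunitz-type proteinase inhibitor (gene2468) and an endocuticle structural glycoprotein (gene88), each with r of 0.99 or more and highest in the 1-d-old pupa. gene5010 was nearest to perlucin-like (gene225, r 0.94) and digestive cysteine proteinase 1 (gene393, r 0.93), gene1940 to ninjurin-2 (gene9186, r 0.97), gene1941 to a mitochondrial short-chain acyl-CoA dehydrogenase (gene10894, r 0.95) and gene11692 to probable cytochrome P450 6a14 (gene2293, r 0.94).

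One gene outside the naming rule, a putative lysozyme-like protein (gene9133), was highest in the 5-d-old pupa. It had 45.9, 44.2, 43.5 and 61 TPM in the 1-d-old larva and 117, 86.7, 92.7 and 79.1 TPM in the 5-d-old pupa. In the 3-d-old larva it had 6.17, 0.28, 48.9 and 0.62 TPM, so that replicate 3 again lay within the range of the 1-d-old larva, and in the 7-d-old larva all 4 libraries were under 0.5 TPM.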

How the data were processed

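RNA of whole melon flies was sequenced in 52 libraries (13 stages, 4 biological replicates). Reads were cleaned by the authors (SeqPrep, Sickle) and placed on the genome by HISAT2 2.1.0, keeping unique matches, and the authors computed the deposited TPM per gene with RSEM 1.3.1. TPM have one total in all libraries and are not scaled between libraries. Gene length was also deposited, in nucleotides, and the build is not given in the sources used here. Read depth and counts were not used here, so the authors' count test was not repeated.

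log2(TPM + 1) of the 17097 genes above 0.1 TPM in at least 4 libraries was fitted with limma 3.58.1 (R 4.3.3), with trended and robust moderation and 1 mean per stage over all libraries. P-values were adjusted by Benjamini and Hochberg over all genes tested in each of 19 comparisons. The thresholds were an adjusted p of 0.05 and a log2 fold change of 2, and the script was tested on simulated data. P-values measure the spread between pools, with 1 spread per gene shared by all 13 stages. A gene near 0 in most stages can thus have an SE below the spread of its peak stage. The lysozyme genes, the gene lists and the tests were chosen with earlier results of these data known. Every lysozyme gene is named, with the values of all 4 libraries in each stage where its mean reached 10 TPM, and the 3 genes of most similar profile were sought for each of those 13 genes, of which the text names part. Lists of genes were made from product descriptions and are given by counts, medians and sums alone, without polyglutamylases in the list of amylases. Lists of glucan-binding proteins, amylases and maltases, and carboxypeptidases were made too. From the 7-d-old larva to the 1-d-old pupa, 2 of 6, 1 of 19 and 2 of 26 of their genes rose and none, 3 and 10 fell.

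Alternatives were a pseudocount of 0.1, filters of none and of 1 TPM, median-of-ratios scaling from 6902 genes, a log2 threshold of 1, a replicate block, the compared stages alone, libraries with 70% or more of reads mapped and leaving out each library. Python 3.11.15 with pandas 2.3.3, numpy 2.4.6 and matplotlib 3.10.9 was used for tables and figures. Sequences of the genes were not used here.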

Additional observations from a re-analysis of the deposited data

Results flagged for a closer look

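Samples far from the others of their stage were sought in 97 groups of 4 libraries (a lysozyme gene in a stage where its mean was 10 TPM or more). In 9 groups the highest or lowest library was separated from the rest by more than Dixon's critical value at 95%. A rate of about 1 in 20 by chance holds for independent groups of normally distributed values. The groups here share libraries and were taken on TPM without logs, so the 9 cannot be set against that rate. Replicate 2 of the 1-d-old pupa was the highest for gene5004 (37.1 TPM, others 4.94 to 9.49), gene5005 (32.0 TPM, others 4.73 to 8.5) and gene5008 (43.4 TPM, others 3.12 to 5.81). All 3 are lysozyme B-like genes of the larva. gene5010 was highest in replicate 3 of the 9-d-old pupa (810.2 TPM, others 16.7 to 75.5), a library that also held the highest gene1941 of its stage (44.8 TPM, others 23.6 to 26.1). gene5010 was also set apart in replicate 4 of the 9-d-old female (95.4 TPM, others 24.3 to 32.5). gene11692 was highest in replicate 2 of the 7-d-old larva (510 TPM, others 145.8 to 177). In the 3-d-old larva gene5009 was highest in replicate 3 (113.6 TPM, others 0 to 18.0), and gene5004 was lowest in replicate 1 (6403 TPM, others 16464 to 17869).

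The change from day 1 to day 9 of adult life differed between the sexes for 10 of 15 lysozyme genes, by limma's test of the difference of log2 fold changes (females minus males, adjusted p under 0.05). At the same adjusted p 23.3% of all genes tested were lower in females. The share that was higher was not counted, so the 10 genes of both directions have no matching share. Past the fold change threshold as well, 11.6% of all genes were higher in females and 2.16% lower. The difference was -2.83 for gene5011 (adjusted p = 8.54e-07), -3.37 for gene5004 (adjusted p = 5.27e-04), -2.92 for gene5005 (adjusted p = 0.00151), -2.51 for gene5006 (adjusted p = 7.96e-04) and -3.28 for gene5008 (adjusted p = 9.73e-04). It was smaller for gene5007 (-1.64, adjusted p = 0.0429), gene1940 (-1.03, adjusted p = 5.42e-04), gene1941 (-0.99, adjusted p = 0.0260) and gene11692 (-0.87, adjusted p = 0.0135). For gene5012 it went the other way (0.86, adjusted p = 0.00118). gene5009, gene5010 and the 3 lysozyme P-like genes did not pass.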

How the results depend on the processing

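Of 75 calls (a lysozyme gene in a comparison), 62 stayed in every alternative other than the lower threshold, and no call changed direction. Calls were lost for 9 pairs with median-of-ratios scaling, 4 with the compared stages alone, 4 without the low-mapping libraries, 2 with a pseudocount of 0.1 and 10 on leaving out a library. None was lost with other filters. Deviations of same-numbered replicates of the compared stages had r of -0.30 to 0.22 over genes. Replicates of unlike number were not compared, so whether the numbers mark pairs is not settled. A fit with a replicate block changed no call (8 of 15 genes from egg to 1-d-old larva). With a threshold of 1 the counts were 5 (L3 minus L1), 4 (L7 minus L3), 5 (P5 minus P1), 8 (F1 minus P9), 8 (M1 minus P9), 4 (F9 minus F5), 2 (M5 minus M1) and 9 (F9 minus M9). That cut is looser for every gene. The share of all genes called is not given for it or the other settings, so these counts are no result about lysozymes. With the compared stages alone the lysozyme counts were 1 (L3 minus L1), 1 (F5 minus F1), 0 (M9 minus M5) and 1 (F5 minus M5), where the spread rests on fewer libraries. With a pseudocount of 0.1 they were 0 (L7 minus L3), 1 (F9 minus F5) and 0 (M9 minus M5), and with scaling 1 (F5 minus F1) and 0 (M9 minus M5). Without the libraries under 70% mapped L7 minus L3 had 0. Leaving out a library gave 0 to 3 (L7 minus L3), 1 to 2 (P9 minus P5), 1 to 2 (F5 minus F1), 0 to 1 (M9 minus M5) and 1 to 2 (F5 minus M5). Unless stated, the cause was not tested. With scaling the mean summed TPM of the 15 genes became 742 in E, 30774 in L1, 108135 in L3, 44204 in L7, 853 in P1, 2060.4 in F1, 964 in F5 and 405 in F9, from 907, 23568, 59588, 23654, 1257, 1683, 1281 and 762, so that larvae stood further above the other stages. TPM keep no depth, so precision at low values, as for gene5007, gene5009 and the lysozyme P-like genes outside their peaks, is unknown. After scaling the share of higher genes among all genes called moved by over 10 points in 11 of 19 comparisons, from 37.3% to 60.4% for L1 minus E and from 59.7% to 31.9% for F9 minus M9.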
